A study of Mus musculus with 23 samples.

Results

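Stefins and cystatins are small proteins that block cysteine proteases, chiefly the cathepsins of lysosomes, by plugging the active site cleft reversibly. The 5 genes described here, of 41073 in the count tables, are Stfa3, Csta2 and Cstdc4, which belong to the stefin A gene cluster of mouse chromosome 16, together with Cstb (stefin B, also called cystatin B) and Cst3 (cystatin C). They were taken by name from the tables, with earlier results of these libraries known: the cluster genes were selected on their high counts after bacterial exposure relative to day 4 controls, and Cstb and Cst3 because every group expressed them. The difference between exposed and control cultures is therefore given below as a description for all 5 genes, with no test.

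The libraries are bulk RNA sequencing of EpCAM-positive lung epithelial cells from C57BL/6 wild type mice, cultured on transwell membranes so that medium lay below the cell layer and air above it (air-liquid interface). The 23 libraries came from 3 experiments (A, B and C) and 4 groups: freshly isolated cells (3 libraries, 1 per experiment), cells at airlift, when the medium above them is taken away (6), day 4 cultures exposed to NTHi (7), that is non-typeable Haemophilus influenzae, which colonises human airways, and day 4 cultures left untreated (7). All were wild type, and fresh, airlift and control cells had no bacteria. The labels do not say whether libraries of a group came from separate animals or cultures, or whether animals were pooled, so the p-values measure only the spread between these libraries. A library is named by its group, experiment and number, such as NTHi C3.

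Stefins, the type 1 cystatins, carry no secretion signal and act in the cytosol, where they are held to protect the cell from proteases that leak from lysosomes or are brought in by microbes. Humans have a single stefin A gene, known from the cornified envelope of skin, whereas in mice it has multiplied into a row of near copies known chiefly from myeloid cells and stressed epithelia. Stefin B is found in most cell types. Cystatin C, a type 2 cystatin, is made with a signal peptide, is secreted into most body fluids, and inhibits cathepsins B, H, L and S outside cells and along the secretory route.

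The coding sequences of Csta2 and Cstdc4 are shown because the copies are so alike that reads can be hard to assign. Both are 294 bases long in GENCODE M21 (build GRCm38, an older build than the GRCm39 used for the counts, where these genes stand under other names that RefSeq lists as synonyms). They differ at 9 bases, which is an identity of 96.9%. Capitals in the Cstdc4 line mark the bases that differ from Csta2.
Csta2: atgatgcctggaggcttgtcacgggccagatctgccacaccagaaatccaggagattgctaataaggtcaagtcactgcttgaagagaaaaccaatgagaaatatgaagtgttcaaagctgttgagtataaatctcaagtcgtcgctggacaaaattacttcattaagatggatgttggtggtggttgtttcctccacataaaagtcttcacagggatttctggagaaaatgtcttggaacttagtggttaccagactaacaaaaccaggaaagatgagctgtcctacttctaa
Cstdc4: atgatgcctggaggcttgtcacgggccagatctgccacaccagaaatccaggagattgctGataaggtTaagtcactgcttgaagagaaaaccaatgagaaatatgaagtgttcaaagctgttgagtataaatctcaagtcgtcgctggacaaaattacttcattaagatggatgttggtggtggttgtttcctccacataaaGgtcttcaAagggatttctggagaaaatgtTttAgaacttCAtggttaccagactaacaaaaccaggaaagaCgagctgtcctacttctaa
Of the 50-base windows of the GENCODE transcript, 78.0% for Csta2 and 64.4% for Cstdc4 occurred in no other gene, and the gene that shared the rest was the other of the pair. For 100-base windows the shares were 93.5% and 88.9%, in the same order. Every 50-base window of Stfa3, Cstb and Cst3 was unique. The values of Csta2 and Cstdc4, and their sum, are therefore uncertain, since the sources used here do not give the counting tool or its treatment of shared reads, so that shared reads may have been divided, dropped or counted for each gene. Stfa3 has 312 coding bases and was 79.2% identical to Csta2, Cstb has 297 and was 62.3% identical, and Cst3 has 423 and was 43.5% identical.

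Bases before the annotated start are shown for 4 cluster genes because most copies of the cluster share letters there. Of the 12 stefin genes in the tables, 10 had a promoter row in RefSeq (build GRCm38.p6), and 8 of those held a common run of 12 bases, in capitals below, within the 250 bases before a start. Each line gives 120 bases ending at the start, 5′ to 3′ on the gene's strand.
Cstdc4 (chr16:36184092-36184211, plus strand): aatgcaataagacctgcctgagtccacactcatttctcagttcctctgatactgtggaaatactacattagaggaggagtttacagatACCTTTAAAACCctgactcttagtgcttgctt
Stfa3 (chr16:36455393-36455512, minus strand): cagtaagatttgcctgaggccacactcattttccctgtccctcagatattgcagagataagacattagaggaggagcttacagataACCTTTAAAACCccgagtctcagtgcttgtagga
Csta3 (chr16:36210283-36210402, plus strand): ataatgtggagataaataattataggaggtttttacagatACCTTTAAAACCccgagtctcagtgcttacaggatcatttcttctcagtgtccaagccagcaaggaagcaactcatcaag
Stfa2l1 (chr16:36156691-36156810, plus strand): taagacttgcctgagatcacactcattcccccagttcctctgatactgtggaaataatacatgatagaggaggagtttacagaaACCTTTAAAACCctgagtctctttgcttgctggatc
The run began 32 bases before the start in Cstdc4, 34 in Stfa3, 80 in Csta3 and 36 in Stfa2l1. It was found in 10 of 32851 promoters (0.0304%), and 2 of the 10 belonged to genes outside the stefins. It was picked as the longest shared stretch of these copies, and Stfa2l1, Stfa1 and Stfa2, which hold it, had 10 counts or fewer in every library, so genes that hold it were not all high after NTHi. It was absent from the rows of Csta2 and Csta1. No promoter row was found for Cstb.

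Csta2, a cluster member with the standard stefin layout, was near the limit of detection without bacteria and clearly present with them. In the NTHi cultures its lowest, median and highest values were 24.2, 80.0 and 101.6 CPM (counts scaled to a common library total, with TMM factors), against 0.354, 0.460 and 0.996 CPM in the day 4 controls. The lowest NTHi library, C3, lay far above the highest control library, B1, and the groups were apart in every experiment. The means were 77.6 ± 27.5 CPM with NTHi and 0.528 ± 0.216 CPM in controls (SD, n = 7 each), a log2 difference of 7.20 ± 0.34 (SE of the edgeR fit). On pooled counts, 20700 against 150, this is 146-fold, with an interval of 125 to 173 that covers counting error of the control count only.

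Cstdc4, the near copy of Csta2, followed it. Its lowest, median and highest values were 16.1, 49.3 and 71.0 CPM in the NTHi cultures, against 0.0975, 0.146 and 0.548 CPM in the controls. Again every NTHi library stood above every control library, with NTHi C3 lowest and control B1 highest of its group. The means were 50.4 ± 18.6 CPM with NTHi and 0.194 ± 0.160 CPM in controls (SD, n = 7 each), with a log2 difference of 8.01 ± 0.39 (SE). Pooled counts of 13447 and 55 give 259-fold, with a counting interval of 199 to 344.

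Stfa3, a further stefin of the cluster that is encoded on the opposite strand, had few counts. These were 42, 14, 42, 24, 16, 44 and 10 counts in NTHi A1, A2, B1, B2, C1, C2 and C3, against 2 in control B1 and none in the other 6 control libraries. It also had no count in any of the 9 fresh and airlift libraries. The NTHi mean was 0.719 ± 0.392 CPM and the control mean 0.0071 ± 0.0188 CPM (SD, n = 7 each). Every nonzero Stfa3 count was even, so the number of independent fragments may lie below the count. Pooled, the ratio to the controls was 67.9, with a counting interval of 28.2 to 841 that reflects the 2 control counts and may be too narrow. The level with NTHi was at least 55.7-fold higher than at airlift, taking 3 counts over the group as the floor. The fitted log2 difference of 6.15 ± 0.69 (SE) rests on those 2 counts: it was 7.78 without control B1.

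All 3 cluster genes passed the low-count filter in the NTHi comparison, where 20.1% of the 16337 genes tested were called higher and 20.4% lower (40.5% in all). Stfa3 and Cstdc4 did so through the NTHi libraries: 1 of 7 controls reached 10 counts of Cstdc4 and none did for Stfa3. Because the genes were picked for this difference, their place among the genes called higher adds nothing to it. With library totals in place of TMM the split over all genes was 2282 called higher and 4415 called lower. Leaving out control B1, the values for Csta2 and Cstdc4 were 7.37 and 8.48.

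**Figure D1:**
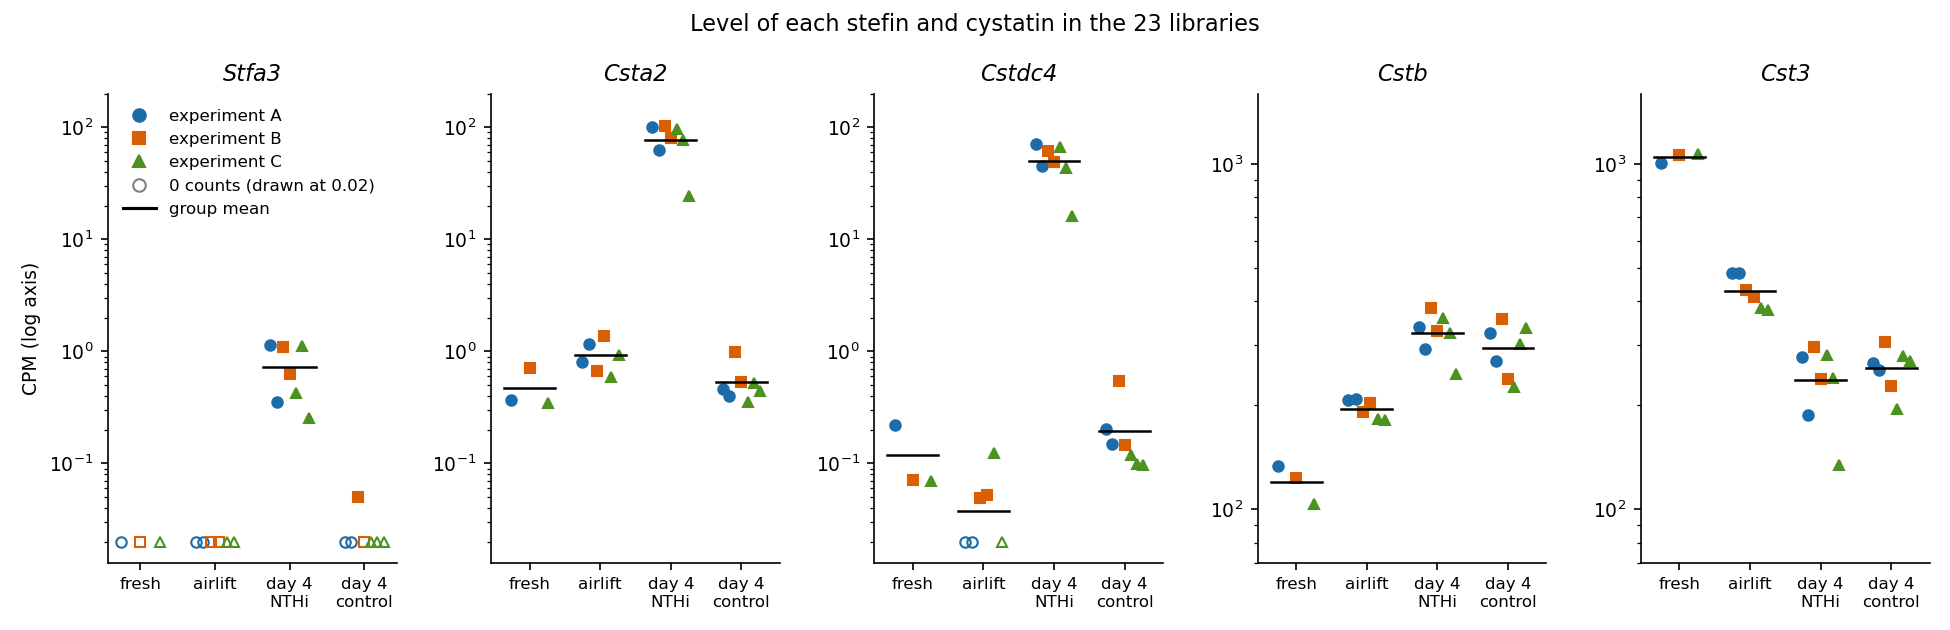
Level of Stfa3, Csta2, Cstdc4, Cstb and Cst3 in each of the 23 libraries, in CPM on a log axis, with a black line at the group mean, open symbols for libraries with 0 counts, and colours and shapes for the experiments. The 3 cluster genes reach their NTHi levels of 0.719, 77.6 and 50.4 CPM in all 3 experiments and lie near 0 elsewhere, whereas Cstb and Cst3 sit at similar levels in NTHi and control libraries and differ between fresh, airlift and day 4 cells.

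Within the NTHi libraries the proportion of Cstdc4 to Csta2 varied little, while the sum of the cluster genes and the share of Stfa3 varied more. The 3 genes together had 40.6, 130 and 173 CPM (lowest, median and highest) with NTHi, against 0.472, 0.620 and 1.59 CPM in controls. Cstdc4 made up 35.9% to 41.6% of the counts of Cstdc4 and Csta2 in the 7 NTHi libraries (39.4 ± 2.16%, SD), against 16% to 35.5% in the controls (24.9 ± 6.93%, SD, n = 7), where 20 to 62 counts lie behind each share. A share of counts also depends on transcript length, so it is compared across libraries only. Stfa3 gave 0.260% to 0.928% of the 3 genes' counts with NTHi. The library with the smallest sum, NTHi C3, had a Cstdc4 share of 40.0%, inside the range of the others. Within experiments, the log2 ratio of NTHi to control means was 7.58, 6.89 and 7.23 for Csta2 in A, B and C, and 8.36, 7.32 and 8.65 for Cstdc4. No gene of 16337 was called for an NTHi effect that differed between experiments by edgeR's interaction test, with 675 genes at an unadjusted p below 0.05, and DESeq2's likelihood ratio test called 5.

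The rest of the cluster was nearly silent. Csta3, another full-length copy that differs from Csta2 at 54 of its 294 bases, had no count in any fresh, airlift or control library and 0, 0, 4, 6, 18, 6 and 6 counts in NTHi A1, A2, B1, B2, C1, C2 and C3. It was thus seen with NTHi in experiments B and C and not in A. Stfa1, Csta1, Stfa2 and Cstdc5 never exceeded 7 counts in a library, and Cstdc3 and Cstdc6 had none. Stfa2l1, which is known from neutrophils, had 10, 4 and 7 counts in fresh A1, B1 and C1, 4 counts in all at airlift, and none at day 4 with or without NTHi. Every 50-base window of the Csta3 transcript was unique, while reads of the others can be shared with close copies or models. No test was made on any of these genes.

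Between controls and NTHi, markers of neutrophils, a cell type in which mouse stefins are abundant, moved in part with the cluster genes. The 14 markers summed to 1575 to 2157 CPM with NTHi and 388 to 762 CPM in controls. Of the 8 tested, 5 were called higher and 1 lower, where 20.1% and 20.4% of all genes were. The 5 that rose were Ltf (lactoferrin, which airway epithelium also secretes), at 1553 ± 235 CPM with NTHi and 535 ± 151 CPM in controls (SD, n = 7 each), and genes for 2 matrix proteases and both subunits of calprotectin. Mmp8, Mmp9, S100a8 and S100a9 averaged 114, 83.2, 14.1 and 1.06 CPM with NTHi, against 12.2, 27.6, 2.69 and 0.565 CPM in controls. Ltf made up most of the sum of the 14 markers with NTHi. That sum was highest in NTHi C3 (2157 CPM) and lowest in NTHi A1 (1575 CPM), as was Ltf. The 3 cluster genes together ran the other way, at 40.6 CPM in C3 and 173 CPM in A1. Mmp8, Mmp9, S100a8 and S100a9 were each lowest in C3 among the NTHi libraries. Cxcr2, a chemokine receptor of neutrophils, had no count in any NTHi library and averaged 0.782 CPM in controls. It is the 1 called lower and entered the fit through the controls alone. Mpo, a granule enzyme, had no count in either group, and Elane, another, had none with NTHi and 0 to 2 counts in controls. Ly6g, Ngp and Retnlg averaged 0.0148, 0.0150 and 0.0225 CPM with NTHi, against 0.0278, 0.0071 and 0.115 CPM in controls. The 15 macrophage and monocyte markers went the other way, summing to 431 to 1751 CPM with NTHi and 2077 to 4154 CPM in controls. Of these, 10 were called lower and 2 higher, where 20.4% and 20.1% of all genes were. Among the 10, C1qc had 6 to 18 counts with NTHi and 182 to 406 in controls. Cx3cr1 had 0 to 15 with NTHi and 8 to 57 in controls. Both entered the fit mostly through the controls, so the count of 10 is no measure of the list. Pan-leukocyte markers summed to 94.1 to 321 CPM with NTHi and 315 to 668 CPM in controls. The 7 epithelial markers, among them Epcam and Cdh1, were present in every library and summed to 5722 to 6451 CPM with NTHi and 5231 to 6310 CPM in controls. The part of other cell types in the level of the cluster genes was otherwise not tested. In bulk RNA, fewer cells of a type and less RNA per cell cannot be told apart.

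Cstb, the ubiquitous cytosolic stefin, was near its control level with NTHi. Its lowest, median and highest values were 246, 328 and 382 CPM with NTHi and 226, 301 and 355 CPM in controls. The ranges overlapped over most of their length. The means were 324 ± 44.7 CPM with NTHi and 293 ± 49.5 CPM in controls (SD, n = 7 each), a log2 difference of 0.14 ± 0.11 (SE), which was 0.20 without NTHi C3. The same difference within experiments A, B and C was 0.083, 0.26 and 0.11.

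Cst3, the secreted cystatin, likewise overlapped between the day 4 groups. It had 135, 240 and 296 CPM (lowest, median and highest) with NTHi and 195, 265 and 306 CPM in controls. NTHi C3 was lowest of all 23 libraries and control C1 lowest of its group. The means were 236 ± 57.5 CPM with NTHi and 256 ± 35.8 CPM in controls (SD, n = 7 each), with a log2 difference of −0.12 ± 0.15 (SE) that came to −0.02 without NTHi C3. Those libraries also had the lowest macrophage and monocyte marker sums of their groups, 431 CPM in NTHi C3 and 2077 CPM in control C1, and the lowest agreement with the other libraries of their groups. NTHi C3 was lowest of the NTHi libraries for all 5 genes. The part of macrophages in the Cst3 and Cstb levels was not tested.

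**Figure D2:**
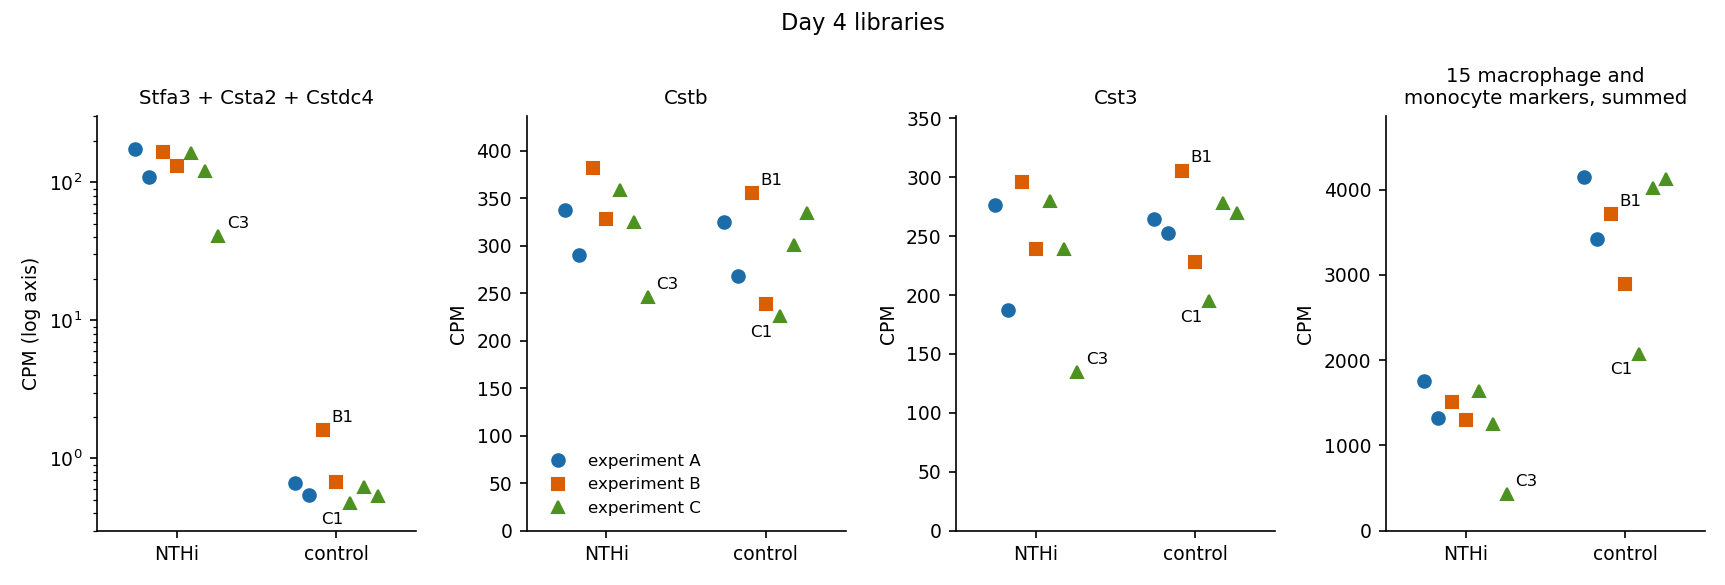
The summed cluster genes (log axis), Cstb, Cst3 and the 15 summed macrophage and monocyte markers in the 14 day 4 libraries, in CPM, with NTHi left of control. Symbols show the experiment and letters mark NTHi C3, control C1 and control B1: NTHi C3 is lowest of its group in every panel, at 40.6 CPM for the summed cluster genes.

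The untreated course from isolation to day 4 shows how Cstb and Cst3 moved when no bacteria were present. Cst3 fell at both steps. It had 1006, 1063 and 1068 CPM in fresh A1, B1 and C1, then 378, 422 and 482 CPM (lowest, median and highest) at airlift, and 195, 265 and 306 CPM in day 4 controls. The groups did not overlap at either step. The means were 1046 ± 34.2 CPM in fresh cells (SD, n = 3), 428 ± 46.3 CPM at airlift (SD, n = 6) and 256 ± 35.8 CPM in controls (SD, n = 7). The log2 difference of airlift from fresh cells was −1.28 ± 0.10 (SE, adjusted p = 1.7e-09 by edgeR's quasi-likelihood test), and that of day 4 control from airlift was −0.74 ± 0.08 (adjusted p = 5.6e-07). Of the 18302 genes tested, 36.7% were called lower at airlift than in fresh cells (74.6% in either direction), and 27.7% lower in day 4 controls than at airlift (54.5% in either direction).

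Cstb went up over the same course. It had 134, 123 and 103 CPM in fresh A1, B1 and C1, then 181, 197 and 208 CPM (lowest, median and highest) at airlift and 226, 301 and 355 CPM in day 4 controls. Here too the groups did not overlap. The means were 120 ± 15.3 CPM in fresh cells (SD, n = 3), 196 ± 12.4 CPM at airlift (SD, n = 6) and 293 ± 49.5 CPM in controls (SD, n = 7). Cstb rose by 0.73 ± 0.12 at airlift over fresh cells on the log2 scale (SE, adjusted p = 2.4e-05, edgeR) and by 0.58 ± 0.09 in controls over airlift (adjusted p = 3.2e-05), where 37.9% and 26.9% of all genes tested were called higher. From fresh cells to day 4 controls the differences were 1.31 ± 0.12 for Cstb (adjusted p = 1.5e-08) and −2.02 ± 0.10 for Cst3 (adjusted p = 1.4e-12), in a comparison that called 38.8% of genes higher and 37.7% lower (76.6% in all).

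Fresh libraries were scaled by TMM factors of 0.741 to 0.770, far from those of the other groups (0.984 to 1.10). With library totals alone, the median log2 difference of all genes between airlift and fresh cells moved to 0.49, and the values became −0.79 for Cst3 and 1.21 for Cstb, with 10131 genes called higher and 4223 lower in place of 6928 and 6718. Within experiments A, B and C, the log2 ratio of airlift to fresh means was −1.06, −1.33 and −1.49 for Cst3 and 0.64, 0.68 and 0.82 for Cstb.

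The ratio of Cstb to Cst3 counts in a library needs no scaling. It depends on the lengths of the genes, so only its change between groups is read. It was 0.133, 0.116 and 0.0968 in fresh A1, B1 and C1, then 0.431 to 0.494 at airlift and 1.05 to 1.24 in day 4 controls, so no group overlapped its neighbour. The log2 ratio was 2.01 higher at airlift than in fresh cells (exact permutation test, two-sided p = 0.0119, the smallest that 84 arrangements allow). It was 1.31 higher in controls than at airlift (exact permutation p = 0.000583, the smallest of 1716 arrangements) and 3.32 higher in controls than in fresh cells (exact permutation p = 0.00833, the smallest of 120). The arrangements moved libraries freely across experiments A, B and C, so these p-values take no account of experiment. Within experiments A, B and C the step from fresh cells to airlift was 1.70, 2.01 and 2.31, and the step from airlift to control 1.40, 1.24 and 1.28. Adjusted over these 3 comparisons by Benjamini-Hochberg, the p-values were 0.0119, 0.00175 and 0.0119. With NTHi the ratio was 1.22 to 1.83, against 1.05 to 1.24 in controls, and the log2 difference of 0.30 is given with no test.

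**Figure D3:**
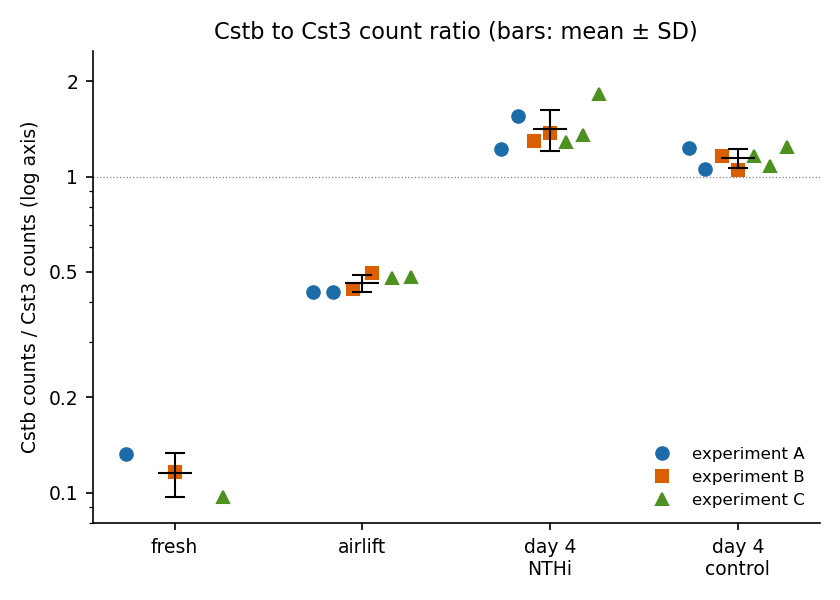
Ratio of Cstb counts to Cst3 counts in each library on a log axis, by group, with symbols for the experiments and bars for mean ± SD (n = 3 fresh, 6 airlift, 7 NTHi, 7 control). The ratio is 0.0968 to 0.133 in fresh cells, 0.431 to 0.494 at airlift, 1.22 to 1.83 with NTHi and 1.05 to 1.24 in day 4 controls.

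The markers of other cells also moved over the untreated course. Macrophage and monocyte markers summed to 2451 to 2731 CPM in fresh cells, 1439 to 1679 CPM at airlift and 2077 to 4154 CPM in day 4 controls, so they did not follow the steady fall of Cst3. Pan-leukocyte markers summed to 845 to 964 CPM in fresh cells, 424 to 502 CPM at airlift and 315 to 668 CPM in controls. Mesenchymal markers summed to 18.4 to 32.4 CPM in fresh cells, 29.5 to 79.8 CPM at airlift and 200 to 502 CPM in controls, and epithelial markers to 7528 to 8090, 7255 to 8947 and 5231 to 6310 CPM in the same order. Their part in the Cstb and Cst3 levels was not tested.

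Among the cluster genes, only Csta2 had enough counts for a test without bacteria. It had 24 to 52 counts at airlift, against 10, 20 and 10 counts in fresh A1, B1 and C1, and its means were 0.921 ± 0.298 CPM at airlift (SD, n = 6) and 0.472 ± 0.202 CPM in fresh cells (SD, n = 3). The groups overlapped through fresh B1, at 0.706 CPM. The log2 difference was 1.01 ± 0.34 (SE, adjusted p = 0.0127, edgeR), but the call was lost without fresh A1 (0.91, adjusted p = 0.0597), without experiment A (0.81, adjusted p = 0.116) or C (0.94, adjusted p = 0.0682), in a fit on all 23 libraries (0.95, adjusted p = 0.151), and when all cluster genes were summed into 1 row (0.12, adjusted p = 0.728). A difference of Csta2 between airlift and fresh cells is therefore not firm at this depth. In day 4 controls Csta2 lay 0.80 ± 0.25 below airlift and 0.21 ± 0.34 above fresh cells on the log2 scale, given without a test because those libraries belong to the comparison that chose the gene. Its order over the untreated groups, airlift above control above fresh, holds for the means, with all 3 ranges overlapping. Cstdc4 had 2 to 6 counts in fresh libraries, 0 to 5 at airlift and 4 to 22 in controls and was not tested.

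Of the other secreted cystatins, 2 changed over the untreated course. Cst6 (cystatin E/M, an inhibitor of legumain and cathepsins known from skin) had 2 to 4 counts in fresh libraries, 24 to 40 at airlift and 34 to 48 in controls. It entered the fit through the airlift and control libraries. Its rise of 2.65 ± 0.36 at airlift over fresh cells (log2 ± SE) is therefore given without a test. Its difference of 0.44 ± 0.19 in controls over airlift missed the threshold (adjusted p = 0.0581, edgeR). With NTHi it had 16 to 45 counts, a log2 difference from controls of −0.45 ± 0.18 that also missed it (adjusted p = 0.0528), and it passed in 5 of 26 alternative fits. Cst8, a cystatin-related gene known from the epididymis and testis, had 697, 559 and 617 counts in fresh A1, B1 and C1, 11 to 18 at airlift, 0 to 8 in controls and 0 in all 7 NTHi libraries. It fell by 5.84 ± 0.28 at airlift against fresh cells (log2 ± SE, adjusted p = 1.6e-12, edgeR) and by 2.28 ± 0.44 in controls against airlift (adjusted p = 0.00029). Cst13 had 7, 14 and 11 counts in fresh A1, B1 and C1 and none in the other 20 libraries. Cst7 (cystatin F, an inhibitor of cathepsin C in immune cells), Cst9 and Cstdc2 did not exceed 8 counts in any library, and 4 of the 11 secreted cystatins in the tables had none.

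The proteases that these inhibitors bind were measured in the same libraries. Of 19 cysteine cathepsins and legumain, 11 were tested in the NTHi comparison: 2 were called higher, 3 lower and 6 neither, near the 20.1% and 20.4% of all genes, with a median log2 difference of 0.0036 beside −0.00013 over all genes tested. Ctsc (cathepsin C, which activates the serine proteases of immune granules) had 1357, 1486 and 1636 CPM (lowest, median and highest) with NTHi and 582, 613 and 640 CPM in controls. That gap was wider than the whole spread of either group, and Ctsc rose by 1.29 ± 0.04 (log2 ± SE, adjusted p = 6.3e-12, edgeR). Ctsh (cathepsin H, which takes part in surfactant protein processing) rose by 0.10 ± 0.04 (adjusted p = 0.045). Ctss (cathepsin S, known from antigen-presenting cells) fell by 1.13 ± 0.26 (adjusted p = 0.0028), with 79.5 to 356 CPM under NTHi and 324 to 726 CPM in controls, and its lowest libraries were again NTHi C3 and control C1. Lgmn (legumain, an asparaginyl endopeptidase) and Ctsf fell by 0.50 ± 0.07 and 0.32 ± 0.06 (adjusted p = 2.7e-05 and 0.00043).

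From airlift to the day 4 controls, 8 of 11 proteases of that list rose and none was called lower, where 26.9% of all genes were called higher and 27.7% lower, with a median log2 difference of 0.80 beside −0.02 over all genes. The 6 with the smallest p were Ctsf (1.61 ± 0.08), Ctsc (0.97 ± 0.05), Ctsl (0.87 ± 0.06), Lgmn (0.80 ± 0.05), Ctsw (1.97 ± 0.17) and Ctsb (0.62 ± 0.08), as log2 differences ± SE. Ctsb and Ctsl encode cathepsins B and L, broad lysosomal enzymes that stefin B binds, and Ctsw is known from cytotoxic lymphocytes. Between airlift and fresh cells, 5 rose and 3 fell, against 37.9% and 36.7% of all genes, so the share called was close to that of all genes: Ctsh by 0.70 ± 0.07, Ctsw by 2.23 ± 0.29, Ctsl by 0.37 ± 0.07 and Ctso by 0.25 ± 0.06 were among the risers, while Ctsc fell by 1.33 ± 0.06 and Ctsf by 0.91 ± 0.09. Cstb was called higher and Cst3 lower at both steps.

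**Figure D4:**
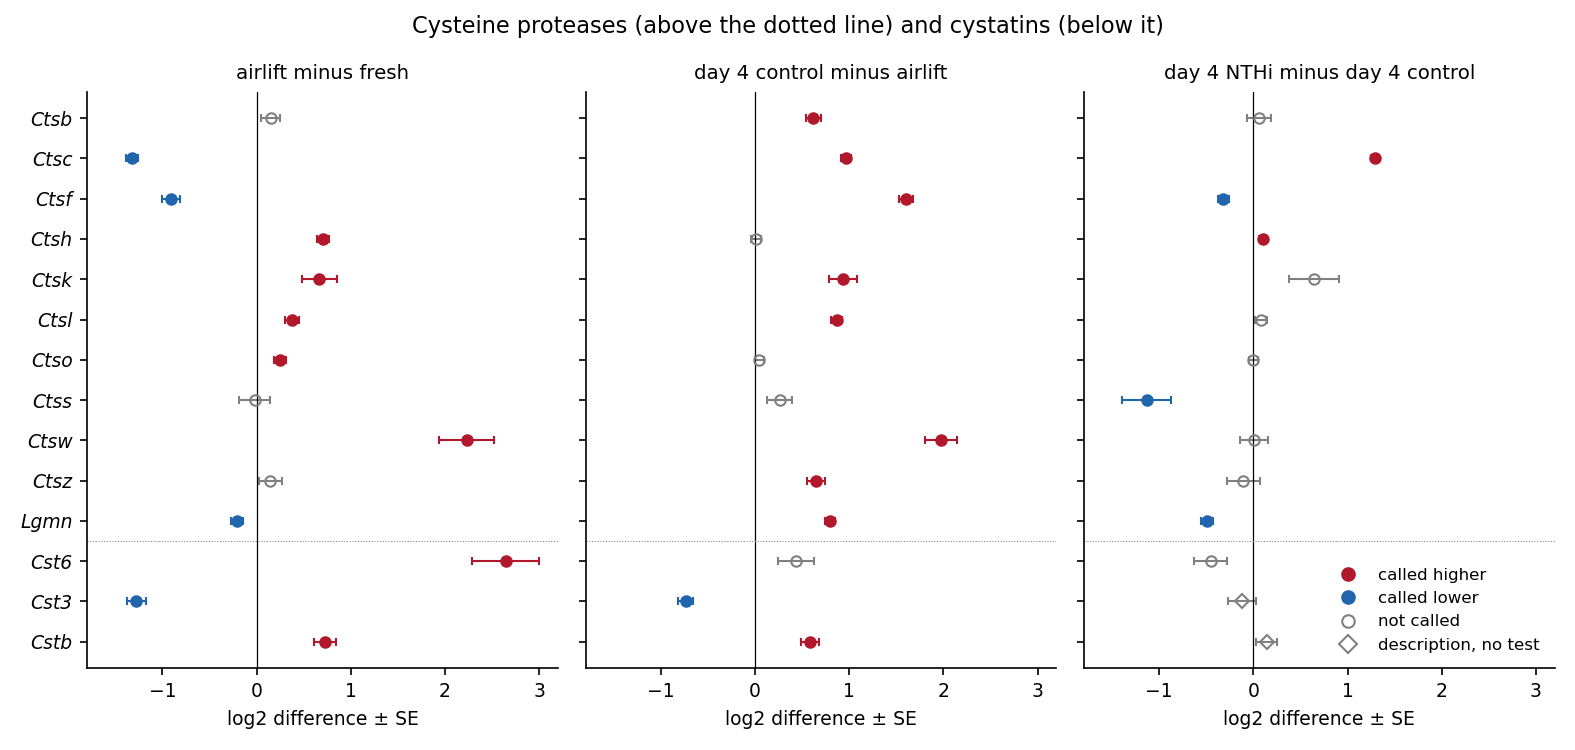
Log2 differences ± SE of the 11 tested cysteine proteases and of Cst6, Cst3 and Cstb in 3 comparisons: airlift minus fresh, day 4 control minus airlift, and NTHi minus control at day 4. Filled red and blue points passed an adjusted p of 0.05 (edgeR), open grey circles did not, and diamonds are described with no test. Cst6 in the left panel is filled by that rule, but had 2 to 4 counts in fresh libraries and is described with no test. In the middle panel 8 of the 11 proteases are red, and Ctsc, at 1.29, is the highest of the right panel.

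Other families of inhibitors and of stefin A's epithelial setting were read in the same fits. The kininogens carry cystatin domains in plasma proteins: Kng1 had 14 to 46 counts with NTHi and 0 to 4 in controls, so it entered the test through the NTHi libraries alone and its difference is given without a test. Kng2 had 64 to 120 counts with NTHi and 20 to 54 in controls and rose by 1.33 ± 0.20 (log2 ± SE, adjusted p = 7.8e-05, edgeR). Fetub (fetuin B, a cystatin-domain protein that inhibits a metalloprotease) fell by 0.61 ± 0.10 (adjusted p = 0.00021). Of 13 tested clade B serpins, cytosolic inhibitors chiefly of serine proteases, 8 fell and 1 rose with NTHi, where 20.4% of all genes fell and 20.1% rose, with a median of −0.32 beside −0.00013 over all genes tested. The riser was Serpinb2 (plasminogen activator inhibitor 2), by 2.12 ± 0.15 (adjusted p = 4.2e-08). Serpinb9b fell by 1.19 ± 0.10 and Serpinb1a, an inhibitor of neutrophil elastase, by 0.40 ± 0.08 (adjusted p = 2.4e-07 and 0.0011, edgeR). Serpinb10, also among the 8, had 4 to 20 counts with NTHi and 34 to 142 in controls. It entered the fit through the controls, so its fall of 3.01 ± 0.23 is given without a test, and the count of 8 is no measure of the list. From airlift to day 4 controls the serpin list had 11 called higher and 1 lower of 14 tested, where 26.9% of all genes were called higher and 27.7% lower. Of the 14, Serpinb7, Serpinb10 and Serpinb12 had at most 0, 7 and 6 counts at airlift. They had 4 to 24, 34 to 142 and 30 to 68 counts in controls. These genes did not enter the fit through airlift libraries, so the count is no measure of the list.

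Stefin A is a component of the cornified envelope in human skin, so genes of that structure were set beside the cluster. Of 14 in the fit, 9 were called higher and 3 lower with NTHi, where 20.1% and 20.4% of all genes were. Among the 9, Sprr2d, Sprr2e and Sprr2h had fewer than 10 counts in every control and entered the fit through the NTHi libraries, so that count is no measure of the list and their differences are given without a test. Sprr2d, a small proline-rich cross-linked protein, had 8.14, 13 and 17.2 CPM (lowest, median and highest) with NTHi and 0, 0.0971 and 0.199 CPM in controls. Sprr2e had 72 to 132 counts with NTHi and 2 to 6 in controls, and Sprr2h 46 to 80 with NTHi and 0 to 4 in controls. Tgm1, the transglutaminase that cross-links the envelope, rose by 0.57 ± 0.04 (log2 ± SE, adjusted p = 1.2e-08, edgeR). Ivl (involucrin) fell by 1.59 ± 0.11 and Ppl (periplakin) by 0.66 ± 0.04 (adjusted p = 2.0e-08 and 8.3e-09), so the list did not move as a block. Sprr2d, Sprr2e and Sprr2h are close relatives whose reads may be shared.

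Genes whose log2 CPM over the 23 libraries ran most like each of the 5 were taken from 13353 candidates with a mean of at least 1 CPM. For Csta2 these were Cxcl5 (Pearson r 0.977), Lacc1 (0.977) and Cd14 (0.976), for Cstdc4 Cd14 (0.980), Cbln1 (0.978) and Fndc4 (0.976), and for Stfa3 Cd14 (0.970), Cbln1 (0.961) and Lacc1 (0.960). Spearman's rho was lower for these pairs, 0.568 to 0.725 for Csta2, 0.718 to 0.827 for Cstdc4 and 0.727 to 0.807 for Stfa3, and the gap between NTHi and the other libraries, on which the 3 genes were chosen, enters every r. Cd14 encodes a co-receptor for bacterial lipopolysaccharide and Cxcl5 a chemokine for neutrophils. Their means were 1636 CPM with NTHi and 204 CPM in controls for Cd14, and 1064 CPM with NTHi and 26 CPM in controls for Cxcl5. For Cstb the nearest were Ap3s1 (0.971), Pla1a (0.967) and Msr1 (0.965), the last a macrophage scavenger receptor, and for Cst3 Irf5 (0.982), Rgs1 (0.982) and Tsc22d3 (0.977), with rho of 0.906 to 0.941 for Cstb and 0.917 to 0.939 for Cst3. The libraries of a group share their stage and treatment, so these r values describe likeness over 4 groups more than over 23 independent points.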

How the data were processed

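RNA was sequenced in bulk from 23 libraries of mouse lung epithelial cells, in 3 experiments and 4 groups as the labels give them. The values are raw counts for each gene in 3 tables that the authors deposited, 1 per experiment, as whole numbers with no normalisation. Per the submitters' processing notes, STAR, DESeq2 and the build GRCm39 were used, with no version stated. How reads were assigned to genes, on which strand and with what rule for shared reads is not given in the sources used here. Each table held 41098 lines, of which 25 were broken and were left out with 6 genes (at most 0.0822% of a library's counts). Libraries held 32323375 to 39081663 counts. Among counts below 20, 69.3% to 74.9% were even, so the number of independent fragments may lie below the count. Intervals and floors (3 counts over a group) cover counting error only. They take each count as an independent fragment, so the intervals may be too narrow even for that error. The 95% intervals of a pooled ratio come from the control count alone, with the NTHi count taken as exact.

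Genes were kept by filterByExpr (minimum count 10), scaled by TMM and tested with edgeR 4.0.16 in R 4.3.3 (quasi-likelihood F-test, group and experiment as terms, Benjamini-Hochberg adjusted p below 0.05). NTHi and control were compared in their 14 libraries, and the untreated stages in one fit of 16 libraries. The SE of a log2 difference is its absolute value over the square root of the F statistic. CPM use TMM-scaled totals of all libraries, and log2 CPM a prior count of 2. In the text a ratio is of counts within a library. Each pair of replicates differed beyond sampling noise in a chi-square over genes, so each library counted once. The 5 genes, the gene lists, the rule for named genes (up to 6 called genes of a list by smallest p) and the tests were chosen with earlier results of these data known. The NTHi and control difference of the 5 genes, and Csta2 in day 4 controls, had been used in that choice and are not tested.

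On simulated counts the NTHi test recovered 70.8%, 92.8% and 100% of genes changed by 0.5, 1 and 2 on the log2 scale (16185 genes), and the airlift test 46.7%, 79.7% and 96.4% (17797 genes). Promoters were read from a RefSeq table (GRCm38.p6) and coding sequences from GENCODE M21 (GRCm38) with Biopython 1.88. No coordinates in GRCm39 are printed. Alternatives were DESeq2 size factors, library totals, DESeq2 1.42.0, no filter, no experiment term, a replicate block, all libraries in one fit, halved counts, summed cluster genes, and leaving out each library or experiment. The comparison without NTHi C3 and control C1 together was added after the data were seen.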

Additional observations from a re-analysis of the deposited data

Results flagged for a closer look

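Among 25 sets of values by gene or ratio and group, 3 stood out from their group by Dixon's criterion, all in the day 4 control library B1 and all in cluster genes. Chance gives about 1 in 20 where values are spread, which does not hold for Stfa3, whose flag was fixed by a single library with counts. Csta2 had 0.996 CPM in control B1, with 0.534 CPM in the nearest other control. Cstdc4 had 0.548 CPM there, with 0.204 CPM in the nearest. Stfa3 had 0.0498 CPM, from 2 counts, with 0 in the other 6 controls. Cstdc4 made up 35.5% of the Cstdc4 and Csta2 counts in control B1, against 16% to 30.8% in the other controls, and the NTHi libraries had 35.9% to 41.6%. Genes outside the stefins and cystatins were not among these sets. Of other genes higher with NTHi, Sprr2a1 had 7.40 CPM in control B1, with 2.79 CPM in the nearest other control. Crct1 and Sprr2d were also highest of the controls in B1, at 4.13 and 0.199 CPM. Sprr2a2 and Sprr2a3 were not highest there, Sprr2e was lowest there at 0.0498 CPM, and Sprr2h and Kng1 were at 0. What set control B1 apart was not tested.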

How the results depend on the processing

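Over 33 results and 797 alternative values, 779 kept their direction and their side of the threshold, or moved by less than 1.5 times or 1 SD. The Stfa3 log2 difference between NTHi and control, 6.15, was 7.70 without experiment B and 5.90 to 7.78 when each library was left out. The Csta2 difference between airlift and fresh cells, 1.01, lost its call without experiment A (0.81), without experiment C (0.94), with all 23 libraries in one fit (0.95) and with the cluster genes summed (0.12), and ranged over 0.89 to 1.2 when each library was left out. That of Csta2 between day 4 control and fresh cells, 0.21, turned to −0.33 with the cluster genes summed, which is a sum over other genes by construction. The genes called for an NTHi effect that differs between experiments were 0 with edgeR, 5 with no filter and 5 with DESeq2's likelihood ratio test. For the other changes the cause was not tested.

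Replicate numbers did not pair the libraries: same-numbered NTHi and control libraries had correlations of deviations from −0.354 to 0.0741. With the replicate block, 5982 genes were called for NTHi in place of 6619 and 8739 in place of 9981 for day 4 control against airlift, and Cst3 differed by −0.77 at that step. Fresh libraries carry no replicate number, so no block was fitted there. Counts of genes called ranged over 6069 to 6702 for NTHi when each library was left out. Genes below about 10 counts, such as Csta3 and Cstdc4 without bacteria, are limited by depth.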
